A study of Mus musculus with 24 samples.

Results

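Two-pore potassium channels carry the background, or leak, potassium current that holds a resting neuron near its resting membrane potential. The 9 genes studied were Kcnk1, Kcnk2, Kcnk3, Kcnk4, Kcnk5, Kcnk10, Kcnk12, Kcnk13 and Kcnk18, measured in sorted mouse sensory neurons with and without Tsc2, an inhibitor of the growth-promoting kinase complex mTORC1. They were taken by their gene symbols from the 47643 gene identifiers of the count files, which also held 5 further genes of the same family. All mice carried Nav1.8-Cre, whose promoter drives recombination in nociceptors and some other sensory neurons, and the Rosa26-ZsGreen reporter, which fluoresces green in cells where Cre has acted. Control mice were Tsc2 flox/+, so that their Cre-positive neurons kept 1 working copy of Tsc2, and Nav-Tsc2 mice were Tsc2 flox/null, so that their Cre-positive neurons were left with none and their other cells with 1. The mice were 8 to 9 weeks old, on a mixed C57BL/6 and AJ background. The L4 dorsal root ganglia (DRG) came from the side opposite to a crush of the sciatic nerve 3 d before. No library came from an animal without a nerve crush. Each genotype had 4 mice, of which replicates 1 and 2 were male and replicates 3 and 4 female, and each mouse gave 3 libraries (A to C) of 100 GFP-positive cells.

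A two-pore channel subunit has a pair of pore loops in 1 chain, and 2 subunits make a channel, whereas most other potassium channels need 4 subunits with a single loop each. The family is divided by what opens or closes its members. TREK-1 (Kcnk2), TREK-2 (Kcnk10) and TRAAK (Kcnk4) are opened by membrane stretch, warmth and fatty acids, and in sensory neurons they are known for damping responses to heat and touch. TASK-1 (Kcnk3) and TASK-2 (Kcnk5) are closed by acid outside the cell, THIK-1 (Kcnk13) and THIK-2 (Kcnk12) are named for their inhibition by halothane, TRESK (Kcnk18) is opened by the calcium-dependent phosphatase calcineurin and is known in sensory neurons for its link to pain and migraine, and TWIK-1 (Kcnk1) is a weak inward rectifier.

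Each pore loop holds a selectivity filter, a stretch of 5 residues that lets potassium pass. The coding bases of the first filter are shown for the 4 genes that differed between the genotypes and for Kcnk1, and those of the second filter for all of these but Kcnk13, because the codons at these places are what the family shares and where its members part. Capitals mark the 15 bases of the filter, codons for threonine (serine was also allowed in the search), any residue, glycine, then tyrosine, phenylalanine or leucine, and glycine, found in the longest coding sequence of each gene in the GENCODE M21 transcripts (GRCm38). The letters run 5′ to 3′ on the coding strand.
Kcnk2, first filter: gttatcacaACCATAGGATTTGGAaacatc
Kcnk2, second filter: actctgacgACCATTGGATTTGGAgactac
Kcnk10, first filter: gtcatcacaACCATAGGGTATGGGaatatt
Kcnk10, second filter: acgctgaccACAGTAGGCTTTGGTgatttt
Kcnk4, first filter: atcatcactACCATCGGCTATGGCaatata
Kcnk4, second filter: actctcaccACTGTAGGCTTTGGCgattat
Kcnk13, first filter: gtggtttctACCATAGGGTTTGGGatgaca
Kcnk1, first filter: gtgctctccACCACAGGCTATGGCcacacg
Kcnk1, second filter: tccctgagcACCATCGGCCTGGGGgactat

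The pattern occurred exactly 2 times in each of the 14 family genes. The fourth codon of the first filter was for tyrosine in 11 genes and for phenylalanine in 3 (Kcnk2, Kcnk12 and Kcnk13). The fourth codon of the second filter was for phenylalanine in 11 genes and for leucine in 3 (Kcnk1, Kcnk6 and Kcnk7). In all 14 genes the first filter was split by an intron after base 7, within the glycine codon, whereas the second lay within 1 exon. In Kcnk13 on chromosome 12, plus strand, the first filter lay at chr12:99966274-99966280 in exon 2 and chr12:100061002-100061009 in exon 3. The second filter lay in coding exon sequence at chr1:189256581-189256595 (minus strand) in Kcnk2, chr12:98440605-98440619 (minus strand) in Kcnk10, chr19:6927631-6927645 (minus strand) in Kcnk4 and chr8:126025329-126025343 (plus strand) in Kcnk1. The most alike coding sequences among the 9 genes were those of Kcnk12 and Kcnk13, with 71.7% of 1188 aligned bases identical, and those of Kcnk2 and Kcnk10, with 71.5% of 1256. No window of 50 bases, the length of the reads, was shared between the transcripts of any pair of the 14 genes.

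The libraries held 8339220 to 34228180 counts on genes. Tsc2 was 20.9 ± 5.18 CPM (counts scaled to the library total; SD, n = 4 mice) in control and 8.87 ± 1.52 in Nav-Tsc2 mice, with every Nav-Tsc2 mouse below every control mouse (log2 fold change −1.24, SE 0.22; edgeR quasi-likelihood test, adjusted p = 0.00400). The summed level of 8 neuronal markers was 12154 to 15688 CPM in control and 12971 to 14839 in Nav-Tsc2 mice. Within that sum Snap25 fell from 4402 ± 645 to 2051 ± 205 CPM, while Tubb3 was at 5908 ± 985 and 7774 ± 715 CPM. By the cutoffs given below, 3 of the 8 were called lower (Snap25, Isl1 and Rbfox3), 1 higher (Prph) and 4 neither. Over all genes tested, 8.00% were called lower and 9.12% higher. The sum of 11 markers of satellite glia and Schwann cells was 2981 to 3110 and 1964 to 2544 CPM. Glial transcripts were thus measured in the sorted cells of both genotypes. Control libraries 2A, 3A and 4A were the least like the other libraries of their genotype, with a median Pearson r of 0.858 to 0.883 over 10175 genes, against 0.909 to 0.965 in the other 21. In sorted pools of 100 cells, fewer cells of a type and less RNA per cell cannot be told apart.

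All 9 genes were detected, and their levels spanned a wide range. Levels of different genes are compared here per length, as CPM per kilobase of exon. In control mice the highest mean was that of Kcnk1 (4.40 ± 2.03 CPM per kilobase, SD, n = 4), followed by Kcnk18 (4.24 ± 1.45), Kcnk3 (3.91 ± 3.81), Kcnk13 (2.77 ± 1.86), Kcnk2 (2.58 ± 0.778), Kcnk4 (1.50 ± 1.08), Kcnk10 (0.694 ± 0.123), Kcnk5 (0.268 ± 0.307) and Kcnk12 (0.0260 ± 0.0142). The range of each gene over the 4 mice overlapped that of the next, although Kcnk2 stood above Kcnk4, Kcnk4 above Kcnk10 and Kcnk10 above Kcnk5 within each of the 4 control mice. In Nav-Tsc2 mice the order was led by Kcnk13 (8.02 ± 1.20 CPM per kilobase), with Kcnk3 (4.37 ± 3.61), Kcnk18 (4.20 ± 0.214), Kcnk1 (2.69 ± 0.679), Kcnk2 (1.25 ± 0.304), Kcnk4 (0.468 ± 0.115), Kcnk10 (0.258 ± 0.120), Kcnk5 (0.172 ± 0.189) and Kcnk12 (0.0584 ± 0.0315) after it. There, Kcnk18 did not overlap Kcnk1, Kcnk1 did not overlap Kcnk2, and Kcnk2 did not overlap Kcnk4, while the other neighbours overlapped.

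The 9 genes together stood at 20.4 ± 3.15 CPM per kilobase in control and 21.5 ± 5.07 in Nav-Tsc2 mice, with ranges that overlapped, but the genes that made up the sum differed. Kcnk13 made up 13.4% ± 7.88 of the sum in control mice, from 4.44% in control 1 to 21.1% in control 3. In Nav-Tsc2 mice it made up 38.1% ± 5.19, from 30.3% in Nav-Tsc2 2 to 41.3% in Nav-Tsc2 1, so that the genotypes did not overlap. The mechanically gated group of Kcnk2, Kcnk4 and Kcnk10 together made up 24.6, 40.3, 14.8 and 17.0% in control 1 to 4 and 10.5, 6.02, 10.3 and 11.4% in Nav-Tsc2 1 to 4. Every Nav-Tsc2 mouse lay below every control mouse in this share. Both shares rest on the same values as the single genes compared below, and a higher Kcnk13 by itself lowers the share of every other gene. Neither is thus a separate result. Kcnk18 held 12.4 to 29.5% of the sum in control and 16.0 to 25.4% in Nav-Tsc2 mice.

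**Figure D1:**
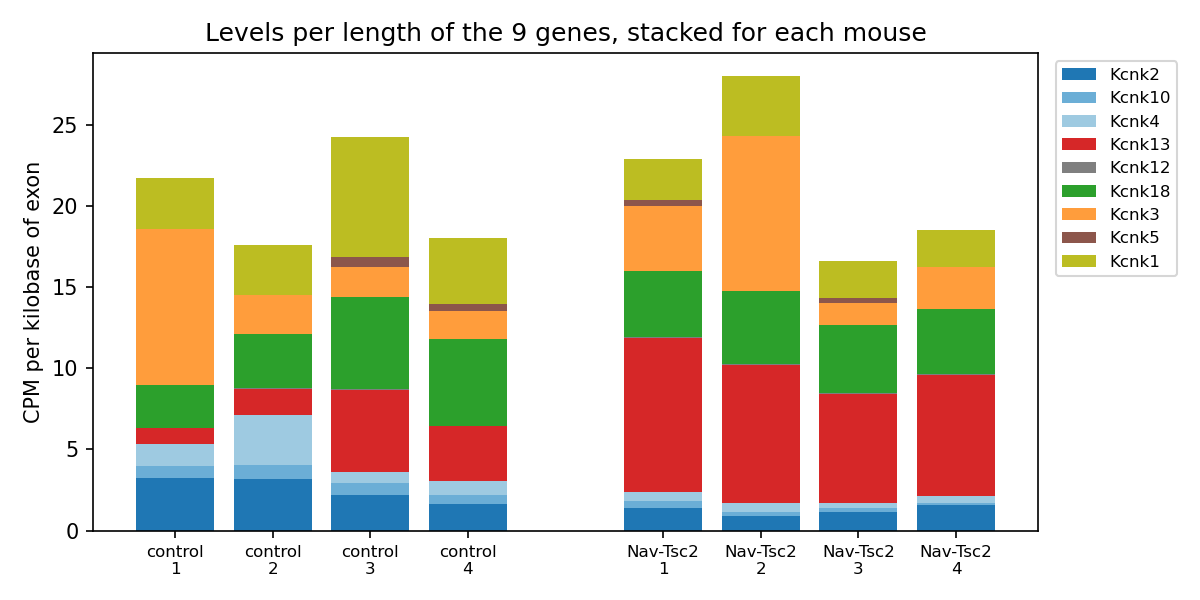
Stacked level of the 9 genes in each mouse, in CPM per kilobase of exon on the vertical axis, with control mice on the left and Nav-Tsc2 mice on the right. The sum was 17.6 to 24.2 in control and 16.6 to 28.0 in Nav-Tsc2 mice, while the red block of Kcnk13 was the thicker and the 3 blue blocks of Kcnk2, Kcnk10 and Kcnk4 together the thinner in every Nav-Tsc2 mouse.

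For the comparison of the genotypes, which asked how loss of Tsc2 bore on ion channel genes of nociceptors, 8 of the 9 genes had enough counts to be tested and Kcnk12 did not. The 3 genes of the mechanically gated group, Kcnk2, Kcnk4 and Kcnk10, were lower in Nav-Tsc2 mice, where 8.00% of the 17178 genes tested were called lower. A single gene, Kcnk13, was higher, where 9.12% of all genes were called higher. The other 4 genes did not pass the test. A gene was called where its adjusted p was under 0.05 and its log2 fold change was past -0.5 or 0.5. The median log2 fold change of the 8 genes was −0.68, and that of all genes tested was 0.01. All 4 called genes were also those in which no mouse of 1 genotype overlapped the other; over all genes tested, 12.3% had every Nav-Tsc2 mouse below and 14.6% every Nav-Tsc2 mouse above every control mouse.

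**Figure D2:**
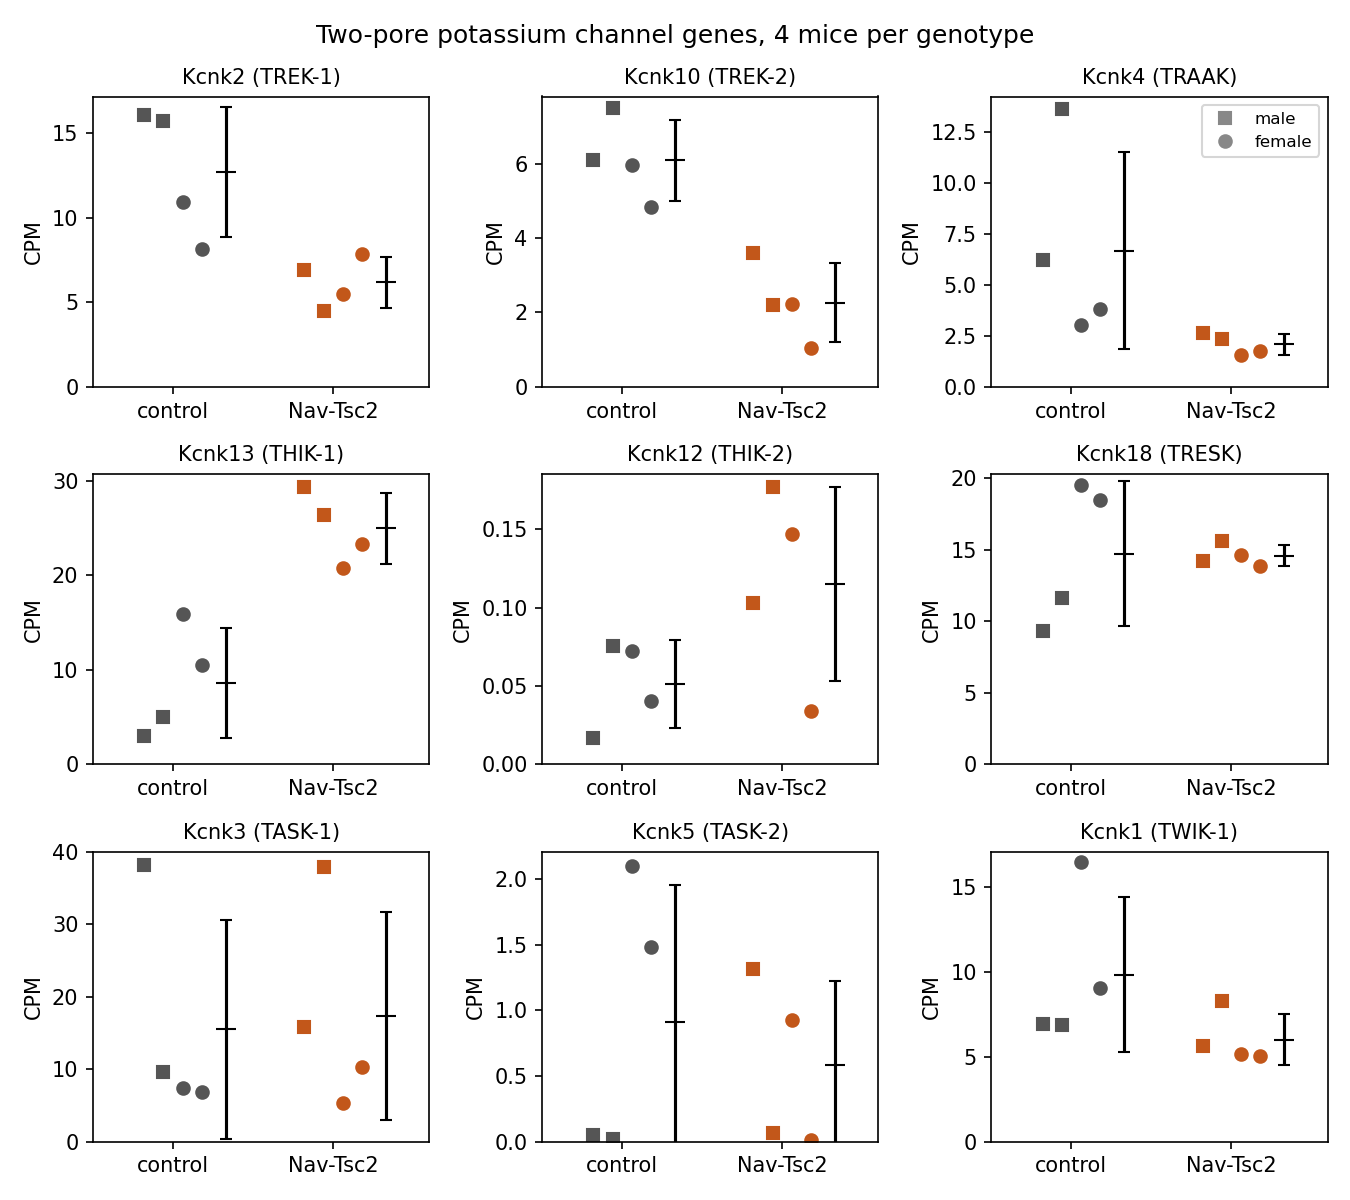
CPM of each gene in every mouse, with control mice in grey, Nav-Tsc2 mice in orange, squares for males and circles for females. The black mark beside each group is the mean with its SD over 4 mice (bars cut at 0); Kcnk2, Kcnk10, Kcnk4 and Kcnk13 are the 4 panels in which the genotypes do not overlap, and every vertical axis starts at 0.

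**Figure D3:**
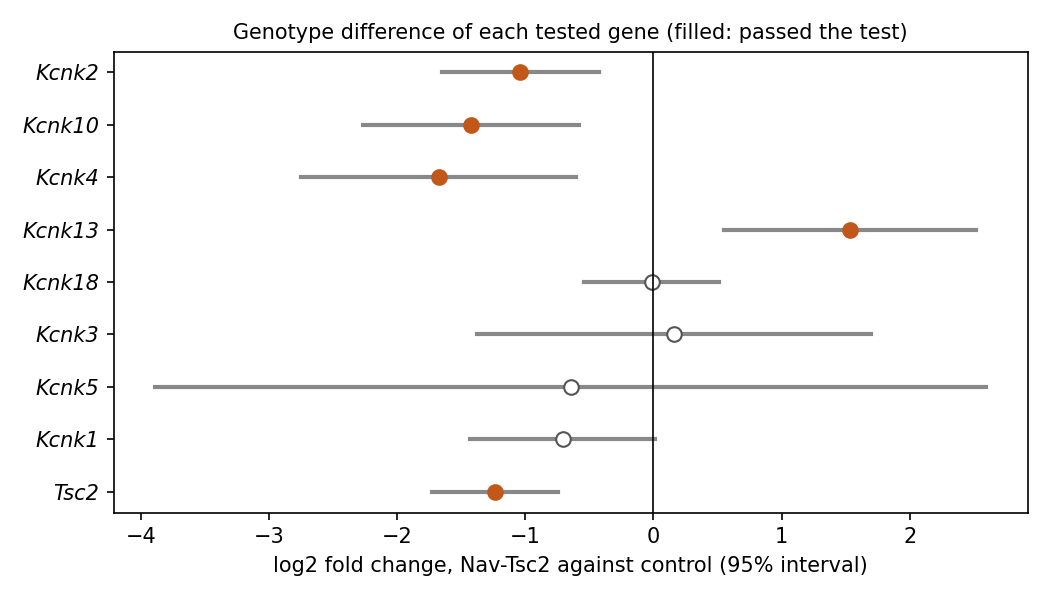
Log2 fold change of Nav-Tsc2 against control mice for the 8 genes tested and Tsc2 (horizontal axis), with 95% intervals from the edgeR fit as grey lines. Filled circles mark the genes that passed the test; the interval of Kcnk18 (−0.54 to 0.51) was the narrowest among the family genes and that of Kcnk5 (−3.89 to 2.60) the widest.

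Among the mechanically gated channels, Kcnk2 encodes TREK-1, a channel opened by stretch and warmth. It was at 16.1, 15.8, 11.0 and 8.15 CPM in control 1 to 4 and at 6.89, 4.48, 5.50 and 7.89 CPM in Nav-Tsc2 1 to 4. Both male control mice stood above both female control mice, and the highest Nav-Tsc2 mouse, female 4, came close to the lowest control mouse, also female 4. Kcnk2 fell by 1.04 on the log2 scale (SE 0.27; adjusted p = 0.0247), from 12.7 ± 3.84 to 6.19 ± 1.50 CPM. With the replicate number as a block the difference was −1.02 and the adjusted p = 0.0737. Leaving out control 1 or 2 or Nav-Tsc2 1, 2 or 3 ended the call, with the adjusted p then between 0.0547 and 0.0691, as did limma-voom on the 24 separate libraries (adjusted p = 0.255). Of the exon bases of Kcnk2, 12.2% overlap A430027H14Rik on the opposite strand, and whether the counting used strand is not given in the sources used here.

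Kcnk10 encodes TREK-2, the closest relative of TREK-1, known in nociceptors that bind isolectin B4 for keeping the resting potential negative. It was at 6.08, 7.48, 5.95 and 4.84 CPM in control 1 to 4 and at 3.60, 2.19, 2.24 and 1.03 CPM in Nav-Tsc2 1 to 4. The control mice were close together, and all Nav-Tsc2 mice stood below them. Kcnk10 fell by 1.43 on the log2 scale (SE 0.38; adjusted p = 0.0249), from 6.09 ± 1.08 to 2.27 ± 1.05 CPM. The call was lost without control 2 (adjusted p = 0.0569), Nav-Tsc2 2 (0.0666) or Nav-Tsc2 3 (0.0591), and in limma-voom on the separate libraries (0.328). Its libraries were less even than its mice: in control 2A it stood at 0.190 CPM and in control 4A at 0, while the other 10 control libraries lay between 4.71 and 11.4 CPM. Without control libraries 2A, 3A and 4A the log2 fold change was −1.67 (adjusted p = 0.0163).

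Kcnk4 encodes TRAAK, which is opened by stretch and by arachidonic acid. It was at 6.20, 13.6, 3.06 and 3.84 CPM in control 1 to 4 and at 2.65, 2.37, 1.55 and 1.78 CPM in Nav-Tsc2 1 to 4. Control 2 was the highest by far, with 9.05 CPM or more in each of its 3 libraries, and the female control mice came close to the Nav-Tsc2 males. Kcnk4 fell by 1.68 on the log2 scale (SE 0.48; adjusted p = 0.0339), from 6.68 ± 4.82 to 2.09 ± 0.511 CPM. Without control 2 the log2 fold change was −1.06 and the adjusted p 0.0777, and without control 1 or any of the 4 Nav-Tsc2 mice the adjusted p lay between 0.0570 and 0.0878. Catsperz, on the same strand, overlaps 13.2% of its exon bases.

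Kcnk13, which encodes THIK-1, moved the other way. It was at 3.00, 5.04, 15.9 and 10.5 CPM in control 1 to 4 and at 29.4, 26.4, 20.8 and 23.3 CPM in Nav-Tsc2 1 to 4, on 177 to 1493 counts a mouse. The female control mice stood above the male ones, whereas the male Nav-Tsc2 mice stood above the female ones, and the genotypes did not overlap. Kcnk13 rose by 1.54 on the log2 scale (SE 0.44; adjusted p = 0.0345), from 8.61 ± 5.80 to 25.0 ± 3.74 CPM. With the replicate number as a block the difference was 1.79 and the adjusted p = 0.0546, so that no member was then called higher. Leaving out control 2 or 4 or any of the 4 Nav-Tsc2 mice also ended the call, with the adjusted p between 0.0546 and 0.0896, as did equal weight for each library (adjusted p = 0.0720). In limma-voom on the 24 separate libraries the log2 fold change was 2.79 (adjusted p = 0.00125).

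The libraries of Kcnk13 showed 2 kinds of spread. In control mice it ranged from 0.0632 to 31.5 CPM over 12 libraries, with 8 of 12 at 1 CPM or more and 5 of 12 at 10 CPM or more. In Nav-Tsc2 mice it ranged from 11.9 to 35.7 CPM, with all 12 libraries at 10 CPM or more. In control 2 a single library, 2C, held 97.9% of the summed CPM. The median SD between the 3 libraries of a mouse, in log2(CPM + 1), was 1.57 in control and 0.257 in Nav-Tsc2 mice. Over 10175 genes with a mean of at least 5 CPM the median of that SD was 0.348 and 0.225, and 10% of genes exceeded 0.747 and 0.464. The SD of Kcnk13 lay above that limit between control libraries and close to the median between Nav-Tsc2 libraries. The genes compared were not matched to Kcnk13 in level. Kcnk2 (0.986), Kcnk3 (0.882), Kcnk10 (1.02) and Kcnk18 (0.930) were also above the limit between control libraries, so this was not particular to Kcnk13. Kcnk1 (0.463), Kcnk4 (0.461), Kcnk5 (0.435) and Kcnk12 (0.0935) were below it.

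**Figure D4:**
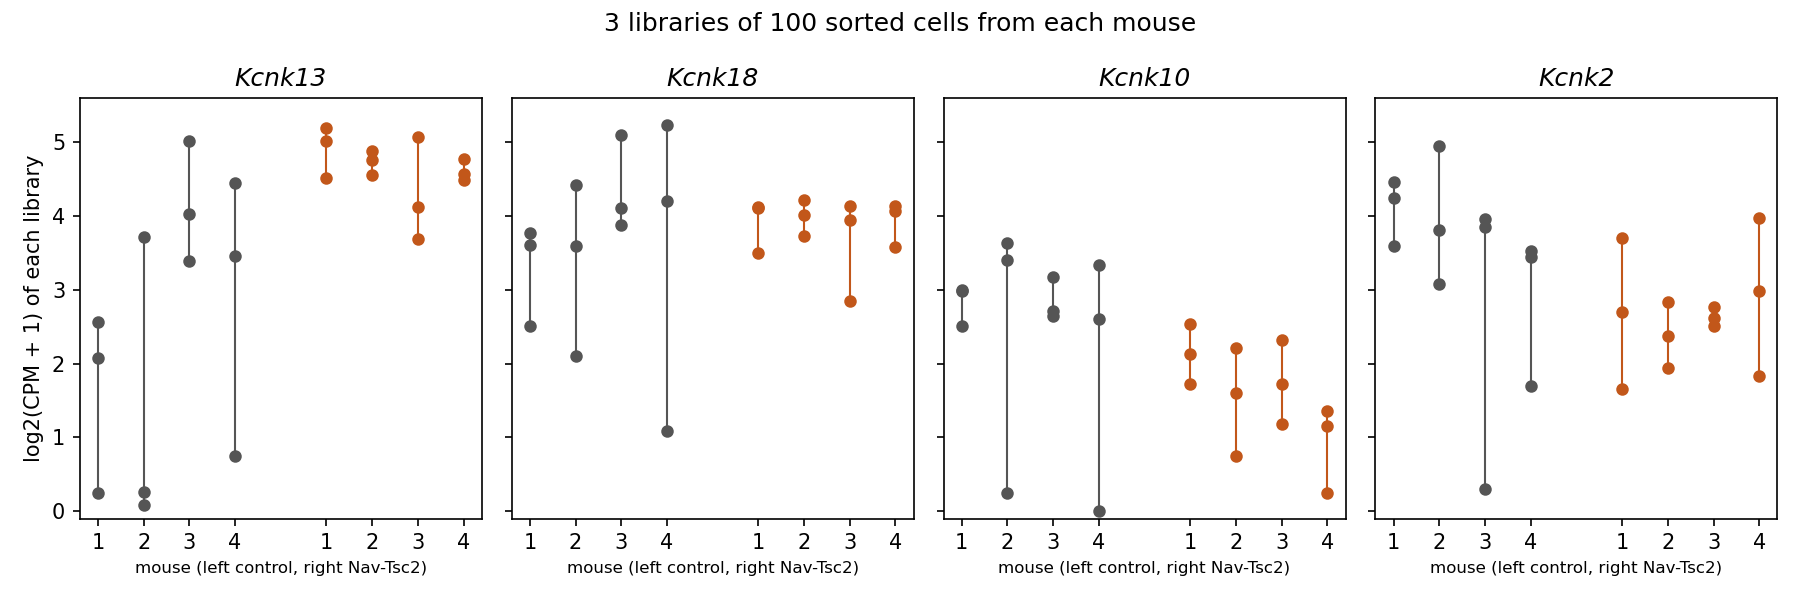
Log2(CPM + 1) of Kcnk13, Kcnk18, Kcnk10 and Kcnk2 in each of the 24 libraries, with the 3 libraries of a mouse joined by a line, control mice in grey on the left of each panel and Nav-Tsc2 mice in orange on the right. The long lines of control 2 and 4 for Kcnk13 (0.0632 to 12.1 and 0.676 to 20.9 CPM) contrast with the short ones of Nav-Tsc2 2 and 4 (22.6 to 28.4 and 21.5 to 26.3 CPM).

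The summed level of 5 markers of nonpeptidergic nociceptors, the neurons that bind isolectin B4, was 249 to 1046 CPM in control and 1177 to 1317 CPM in Nav-Tsc2 mice, although none of the 5 passed the test. The largest difference in means was that of Mrgprd (159 CPM in control and 537 in Nav-Tsc2 mice) and the smallest that of Lpar3 (48.0 and 49.9). Over the 24 libraries, after the mean of each genotype was removed, log2 CPM of Kcnk13 and the log2 sum of these markers had a Pearson r of 0.74. Differences between mice of a genotype stay in this r. Male and female control means were 4.02 and 13.2 CPM for Kcnk13 and 38.9 and 279 CPM for Mrgprd. The 24 libraries share mice and cell pools, so r is given without a p, and the part of these cells in the rise of Kcnk13 was not tested. The second halothane-inhibited channel, Kcnk12 or THIK-2, had 1, 4, 4 and 2 counts in control 1 to 4 and 5, 10, 9 and 2 counts in Nav-Tsc2 1 to 4. It was too low for the fit, the ratio of its pooled counts was 2.27 (95% interval 1.09 to 5.10, counting error only), and over mice an exact permutation test gave p = 0.143 (two-sided).

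Kcnk18 encodes TRESK, one of the main leak channels of sensory neurons. It was at 9.30, 11.6, 19.5 and 18.4 CPM in control 1 to 4 and at 14.2, 15.6, 14.6 and 13.9 CPM in Nav-Tsc2 1 to 4. All Nav-Tsc2 mice lay between the male and the female control mice. The log2 fold change was −0.01 (SE 0.24, 95% interval −0.54 to 0.51; adjusted p = 0.977), with means of 14.7 ± 5.03 and 14.6 ± 0.744 CPM. As for Kcnk13, control libraries were uneven, from 1.13 to 36.8 CPM, whereas Nav-Tsc2 libraries spanned 6.17 to 17.6 CPM. The median SD between libraries of a mouse was 0.930 and 0.332 in log2(CPM + 1). The 2 genes varied together over the 24 libraries with the genotype means removed (Pearson r 0.62), and differences between mice of a genotype stay in this r. Both were low in control 4A, at 0.676 CPM for Kcnk13 and 1.13 CPM for Kcnk18.

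The acid-sensitive channels did not pass the test. Kcnk3, encoding TASK-1, was at 38.2, 9.64, 7.42 and 6.91 CPM in control 1 to 4 and at 15.8, 37.9, 5.37 and 10.4 CPM in Nav-Tsc2 1 to 4. A single male mouse of each genotype, control 1 and Nav-Tsc2 2, stood far above the rest, and the genotypes overlapped. Gm9899, on the opposite strand, overlaps 5.76% of its exon bases. The log2 fold change was 0.16 with a 95% interval of −1.38 to 1.70 (adjusted p = 0.904), an interval that held both a fall and a rise of more than 2-fold. Kcnk5, encoding TASK-2, had 3, 1, 116 and 74 counts in control 1 to 4 and 64, 4, 57 and 1 counts in Nav-Tsc2 1 to 4. It was thus nearly absent from both male control mice and from Nav-Tsc2 2 and 4, and the log2 fold change of −0.65 had a 95% interval of −3.89 to 2.60 (adjusted p = 0.805).

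Kcnk1, encoding TWIK-1, did not pass the test either. It was at 6.93, 6.89, 16.5 and 9.04 CPM in control 1 to 4 and at 5.62, 8.26, 5.14 and 5.04 CPM in Nav-Tsc2 1 to 4. The highest value came from female control 3, where library 3B reached 26.6 CPM and its other libraries 4.13 and 5.63 CPM. The log2 fold change was −0.71 (SE 0.32, 95% interval −1.43 to 0.01; adjusted p = 0.155), and the genotypes overlapped.

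Sex differences were examined because males and females were separated within control mice for several of these genes. Within control mice Kcnk13 differed between females and males by 1.72 on the log2 scale and Kcnk18 by 0.86, both higher in females, while Kcnk3 (−1.74) and Kcnk4 (−1.52) were lower in females. None of the 8 genes passed the edgeR test at an adjusted p under 0.05 (Kcnk13 0.0628, Kcnk18 0.126, the others 0.209 to 0.839), and of all genes tested, 0.640% passed. At an unadjusted p under 0.05 there were 6 of the 8, against 13.8% of all genes. DESeq2 called 5 of them, namely Kcnk3, Kcnk4, Kcnk5, Kcnk13 and Kcnk18. The share of all genes that DESeq2 called for sex is not given here, so nothing particular to these genes is drawn from that count. The genotype difference of Kcnk13 was larger in males, where it went from 3.00 and 5.04 CPM to 29.4 and 26.4 CPM, than in females, where it went from 15.9 and 10.5 to 20.8 and 23.3 CPM. The interaction of genotype and sex for Kcnk13 was −2.06 on the log2 scale, with an adjusted p of 0.214 in edgeR and 0.000910 in DESeq2. No member passed the interaction test in edgeR, where 0.00582% of all genes did. In DESeq2 1 passed, and the share of all genes that passed there is not given here. At an unadjusted p under 0.05 there were 4 members, against 9.22% of all genes. Only 2 mice stood behind each sex and genotype, and sex cannot be told apart from anything else that replicates 1 and 2 did not share with replicates 3 and 4.

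The genes whose pattern over the 24 libraries was most like that of a member, after the genotype means were removed, were sought among 10167 genes with a mean of at least 5 CPM. For Kcnk13 they were Nectin1, a cell adhesion molecule (r 0.89), Anks3 (0.88) and Hexa, a lysosomal hexosaminidase subunit (0.86). For Kcnk18 they were Rnf144a, a ubiquitin ligase (0.86), Syt9, a synaptotagmin of secretory vesicles (0.86) and Ssbp3 (0.86). The likest genes of Kcnk3 were Gal, the neuropeptide galanin (0.78), Ebf4 (0.75) and Sstr2, a somatostatin receptor (0.73), and those of Kcnk2 were Wls, which carries Wnt proteins to the surface (0.77), Bcl11a, a transcription factor (0.76), and Pde1a, a phosphodiesterase (0.75). Among the members examined, Kcnk1 had the weakest likeness, with Slc29a4, a monoamine transporter (0.71), Pcyox1l (0.71) and Syvn1, a ubiquitin ligase of the endoplasmic reticulum (0.69). Kcnk4, Kcnk5, Kcnk10 and Kcnk12 had means under 5 CPM over the libraries and were not examined in this way.

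Of the 5 other family genes, Kcnk16, which encodes TALK-1, a channel known from pancreatic islets, was higher in Nav-Tsc2 mice. It had 1, 2, 1 and 1 counts in control 1 to 4 and 47, 71, 93 and 60 counts in Nav-Tsc2 1 to 4. No control mouse had more than 2 counts, and the ratio of pooled counts was 52.1 (95% interval 22.1 to 162, counting error only; edgeR adjusted p = 0.000391). It passed the low-count filter only through its level in Nav-Tsc2 mice, so a difference was needed for it to be tested at all. Its level was low, at 1.19 ± 0.253 CPM in Nav-Tsc2 mice, and 91.5% of its summed CPM in Nav-Tsc2 3 came from a single library. Kcnk16 lies on chromosome 14, minus strand, at chr14:20261376-20269199, near Kcnk5 at chr14:20140057-20181809. Kcnk7 did not pass the test (log2 fold change −0.77, adjusted p = 0.739), and Kcnk6, Kcnk9 and Kcnk15 were too low to be tested.

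Of 35 listed partners and regulators of these channels, 5 were lower, 3 were higher and 27 did not pass the test, with a median log2 fold change of −0.06. These counts are to be read against the 8.00% of all genes called lower and the 9.12% called higher, and nothing particular to the list is drawn from them. Ppp3ca, which encodes 1 of the catalytic subunits of calcineurin, the phosphatase that opens TRESK, fell by 1.57 (log2) from 2290 ± 433 to 774 ± 62.2 CPM (adjusted p = 0.000114). The other catalytic subunit genes did not pass the test, with log2 fold changes of −0.06 for Ppp3cb (adjusted p = 0.700) and −0.05 for Ppp3cc (adjusted p = 0.897). Plcb1, a phospholipase C, fell by 2.37 on that scale (adjusted p = 5.7e-05) and Prkce, a protein kinase C, fell by 0.78 (adjusted p = 0.00157). Bves and Popdc3, popeye-domain proteins that bind TREK-1, fell from 28.1 ± 9.97 to 8.07 ± 0.993 CPM (adjusted p = 0.00130) and from 36.3 ± 2.78 to 19.2 ± 4.16 CPM (adjusted p = 0.00386). Sort1, encoding sortilin, whose propeptide gives rise to a TREK-1 blocker, rose by 0.92 (adjusted p = 0.0318). Mark1 and Mark3, kinases of the family that phosphorylates TRESK, rose by 0.64 (adjusted p = 0.0457, with mice overlapping) and 0.71 (adjusted p = 0.00402).

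Other carriers of resting conductance were given by 2 further lists. Among 15 inward rectifier potassium channel genes, 9 were tested and 1 was lower, a share near the 8.00% of all genes: Kcnj3, a subunit of the channels opened by G proteins, fell from 28.2 ± 7.90 to 10.3 ± 0.923 CPM (adjusted p = 0.000955). Of its exon bases 31.1% overlap Gm26794 on the opposite strand. Among the 4 genes of the sodium leak channel complex, which carries the inward leak, 1 was lower, where 8.00% of all genes were. Unc80 fell by 0.90 from 48.9 ± 5.43 to 26.3 ± 4.33 CPM (adjusted p = 0.00216), and Nalcn, Unc79 and Fam155a did not pass the test.

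Some markers of other cells passed the test. Of 11 glial markers 1 was lower (S100b) and 10 did not pass the test. Of 9 macrophage markers 6 were tested and 1 was higher (Cx3cr1). All 9 together were at 2.51 to 7.75 CPM in control and 9.73 to 21.1 CPM in Nav-Tsc2 mice. Cx3cr1, at 0.0328 ± 0.0197 and 5.71 ± 3.01 CPM, passed the low-count filter only through its level in Nav-Tsc2 mice. A difference was thus needed for it to be tested at all. Of the tested markers not called, Csf1r, Cd68, Aif1 and Mrc1 had higher means in Nav-Tsc2 mice and C1qb a lower one (1.75 and 0.574 CPM). C1qa, C1qc and Ptprc were too low to be tested. THIK-1 is also known from microglia. The cells had been sorted for the reporter of Nav1.8-Cre, over the 24 libraries Kcnk13 and the log2 sum of the macrophage markers had a Pearson r of −0.33 with genotype means removed, and the part of such cells in the level of Kcnk13 was not tested. Of 5 endothelial markers 2 were tested and both were higher (Flt1 and Kdr). All 5 together were at 0.326 to 1.83 CPM in control and 5.81 to 15.5 CPM in Nav-Tsc2 mice. Flt1, at 0.0338 ± 0.0295 and 8.56 ± 4.01 CPM, also passed the low-count filter only through its level in Nav-Tsc2 mice. Pecam1 (0.422 and 0.315 CPM), Cdh5 (0.0511 and 0.115) and Cldn5 (0.0151 and 0.0239) were too low to be tested. All 4 markers of itch neurons were lower, with sums of 61.8 to 307 and 0.849 to 11.9 CPM. Of 4 markers of low-threshold C-fiber neurons 1 was higher (Th), and none of 5 fibroblast, 5 large-diameter neuron or 2 tested red blood cell markers passed the test. The part of these neuron types in the falls of Kcnk2, Kcnk4 and Kcnk10 was not tested.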

How the data were processed

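RNA of 24 libraries of 100 sorted cells had been amplified with the SMARTer Ultra Low kit and sequenced as single 50-base reads. STAR was used by the authors for alignment to mm10 and HTSeq for counting, and the deposited values are raw counts per gene and library (tool versions not given in the sources used here). Rows that name no gene (47.6 to 55.9% of each file's total, of which most were reads aligned to more than 1 place) were left out. The authors also deposited a table of size-factor-normalized counts per mouse and their own DESeq2 fold changes and p-values, which was not used. Of 47643 identifiers 47224 matched a symbol in GENCODE M21 (GRCm38).

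The 3 libraries of a mouse were summed and the genotypes compared with edgeR 4.0.16 in R 4.3.3 (TMM, filterByExpr, quasi-likelihood test, Benjamini-Hochberg over all genes tested). Genes were called at an adjusted p under 0.05 with a log2 fold change past 0.5 or -0.5, as in the study. CPM used TMM-scaled totals, and levels per kilobase used the union of annotated exons. Standard errors were the log2 fold change over the square root of F. The members and lists were chosen with earlier results of these data known. Genes named beyond the members were Tsc2, in each pathway list up to 3 called genes per direction with the smallest adjusted p, and the 3 genes most like each member at 5 CPM or more; Popdc3, Prkce, Ppp3cb, Ppp3cc, the markers named and the family genes not called were named for completeness after their values were seen. Equal replicate numbers correlated at r = 0.184, 0.185, 0.108 and 0.199 in their deviations from the genotype means over 8445 genes, so a replicate block was fitted as well; mice of the same sex and unequal numbers correlated at 0.0627 to 0.198, so the correlation is not particular to the number. The test was tried on simulated counts. Values of 1 marker list and 1 sequence are not reported here. Alternatives used DESeq2 1.42.0 and limma 3.58.1. The mice are the replicates, and no molecular identifiers were used, so intervals from counts cover counting error only.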

Additional observations from a re-analysis of the deposited data

Results flagged for a closer look

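Kcnk3 stood at 38.2 CPM in control 1, against 6.91 to 9.64 CPM in the other 3 control mice, by Dixon's test of the highest value against the group's range. Of 20 groups of 4 mice tested this way, chance flags about 1. All 3 libraries of that mouse were high, at 20.0, 45.9 and 45.1 CPM.

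For Kcnk5 and Kcnk18 the genotypes differed in opposite directions in the sexes, without overlap: both male Nav-Tsc2 mice were above both male control mice and both female Nav-Tsc2 mice below both female control mice. Each sex and genotype held only 2 mice. How many of all genes show the same pattern was not counted, so nothing particular to these genes is drawn from it. The interaction of genotype and sex was −6.12 on the log2 scale for Kcnk5 (edgeR adjusted p = 0.518) and −0.93 for Kcnk18 (edgeR adjusted p = 0.383), and neither passed the test. The unadjusted p of that edgeR test was 0.0433 for Kcnk5 and 0.0120 for Kcnk18, and 9.22% of all genes were under 0.05. Kcnk5 rested on 1 to 4 counts in 4 of the 8 mice.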

How the results depend on the processing

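Beside the reported fit, 17 others were made, 1 of them (without control libraries 2A, 3A and 4A) chosen after seeing the data; it left 3 members lower and 1 higher. Tsc2 was lower in all of them. Kcnk2 was called lower in 10 of the 17, Kcnk10 in 13 and Kcnk4 in 11, and Kcnk13 was called higher in 9. DESeq2, the study's tool, kept all 4 calls, with adjusted p 0.00170 for Kcnk2, 0.000827 for Kcnk10, 0.00251 for Kcnk4 and 0.00247 for Kcnk13. The count of members called lower, 3, became 1 in limma-voom on the 24 separate libraries (mouse as random effect) and 0 to 3 when 1 mouse was left out. The count called higher, 1, became 0 with the replicate block and with libraries weighted equally, and 0 to 1 when 1 mouse was left out. The median log2 fold change of the members, −0.68, became −0.39 with the replicate block and −0.31 with a term for sex, and lay between −0.89 and −0.22 when 1 mouse was left out. The replicate block kept Kcnk4 and Kcnk10 lower and changed no other call of a member than Kcnk2 and Kcnk13.

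Only genes that passed no test changed sign. Kcnk18 came to 0.050 with the replicate block, 0.047 with a term for sex, 0.35 in limma-voom and 0.019 without the 3 control libraries, and lay between −0.18 and 0.15 when 1 mouse was left out. Kcnk5 came to 0.86 with a term for sex and between −1.42 and 0.18 when 1 mouse was left out, and Kcnk3 lay between −0.57 and 1.12. The interaction with sex, passed by 0 members, was passed by 1 with DESeq2 and 2 without the low-count filter. The sex difference in control mice, passed by 0, was passed by 5 with DESeq2, 3 without the filter and 1 with libraries weighted equally. For the interaction and the sex difference, the shares of all genes that passed in these other fits are not given here. Nothing particular to the members is therefore drawn from these counts. Of 9 places in the order of levels, 5 were kept by CPM without division by length and 5 by coding length. By both of these Kcnk3 was the highest and Kcnk1 held rank 4, so the leading gene in control mice depended on the length used. The cause was not tested in any of these. Kcnk5 and Kcnk12 had counts as low as 1 per mouse, which limits their precision.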

Other observations

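Kcnk7 had counts in 6 of the 8 mice, and a single library held 89.3 to 100% of its summed CPM in each of them. Kcnk5 was at 0 in 3 of 12 control and 4 of 12 Nav-Tsc2 libraries and at 1 CPM or more in 3 of 12 of each genotype, with a highest library of 3.73 CPM in control and 2.66 CPM in Nav-Tsc2 mice. Kcnk3 showed the opposite distribution, with 7 of 12 libraries of each genotype at 10 CPM or more and a range of 0.0782 to 45.9 CPM in control and 1.73 to 57.4 CPM in Nav-Tsc2 libraries.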
